A study of Mus musculus with 12 samples.

Results

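The response of normal mouse B cells to lipopolysaccharide (LPS) and interleukin 4 (IL-4) was described from 6 of the 12 arrays of a study of wild type and transgenic animals. The 6 arrays were chosen by genotype and day in the sample labels: 3 arrays of unstimulated wild type B cells (day 0) and 3 of wild type B cells stimulated for 2 days (day 2). The other 6 arrays hold B cells with the genotype label EFLmDREAM, a transgene of the calcium-binding repressor DREAM, in the same 2 states with 3 arrays each. B cells had been taken from the spleen by negative selection with CD43 microbeads, and a purity above 98% by flow cytometry was stated. Stimulated cells had received LPS at 20 µg/ml with recombinant mouse IL-4 at 10 ng/ml. No group was kept for 2 days without stimulation, and none received LPS or IL-4 alone. Effects of LPS, of IL-4 and of the 2 days themselves therefore cannot be told apart. The response described here is the change from day 0 to day 2. No further allele or agent is named for the wild type groups, and the strain, age and number of mice behind an array, or whether day 0 cells spent time in culture, are not given in the sources used here. Replicates were described as independent and biological. The labelled RNA came from 4 µg of total RNA per array (Affymetrix mouse whole-genome GeneChip).

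LPS is recognised by the receptor TLR4 with its partner MD-2, and signals through MyD88 and TRIF to the NF-kB transcription factors. IL-4 binds a receptor whose alpha chain is encoded by Il4ra, and signals through the kinases JAK1 and JAK3 to the transcription factor STAT6. Given together to resting splenic B cells, they are known to drive entry into the cell cycle, growth in size, switching of the immunoglobulin heavy chain to IgG1 and IgE, and the first steps towards antibody secretion.

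All 45037 probe sets that are not array controls were tested, and each of 18193 genes was read from its brightest probe set by average over the 12 arrays. Levels below are log2 signals after quantile normalization of the 12 arrays together, given for replicates 1, 2 and 3. A change is day 2 minus day 0 on that log2 scale ± its limma standard error (SE), for 3 arrays in each group. A gene was called higher or lower at a Benjamini-Hochberg adjusted p under 0.05. The scaling matters here, because the deposited medians were 5.97 to 6.03 in the day 0 arrays and 5.37 to 5.39 in the day 2 arrays. In the deposited values as they stand the median change of all genes was −0.36. It was 0.26 with array medians subtracted, −0.08 with hybridization controls set equal, and 0.08 after quantile normalization, which is the value against which changes are read here. Arrays of a state correlated with r of 0.985 to 0.996, and arrays of different states with r of 0.902 to 0.912. Replicate 1 of day 0 stood apart in RNA quality: its actin probe sets read 2.22 lower at the 5′ than at the 3′ end, against 1.36 lower in replicate 1 of day 2 and 0.64 to 0.79 lower in the other 4 arrays. The Y-linked gene Eif2s3y read 3.48 to 3.62 in replicate 3 of both states and 8.38 to 9.51 in the other 4 arrays. Xist, a transcript of female cells, read 9.9 to 12.3 on all 6 arrays, so the Y-linked gene alone does not give the sex behind an array. The number of arrays limits the precision, and p-values measure the spread between these arrays.

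At day 2, transcripts of cell division, ribosome production and sterol synthesis were higher, and transcripts of early response, quiescence, homing and B cell receptor signalling were lower. After quantile normalization 6530 genes (35.9%) were higher, 4375 (24.0%) were lower and 7288 were not called. Counts of list members below are to be read against these shares. A change of at least 2-fold was called in 1806 higher genes (9.93%) and 1346 lower genes (7.40%), and 1797 and 1266 of these were called in the same direction under each of the 3 other scalings. Those scalings differ from one another only by 1 shift per array, and their median changes ran from −0.36 to 0.26. They could hardly turn a change of 2-fold, so this agreement is a weak check. The split of all called genes moved with the scaling: it was 3466 higher and 10967 lower in the deposited values, 9384 and 2954 with array medians subtracted, and 2824 and 2382 with hybridization controls set equal. Those controls had a mean of 8.72 on replicate 1 of stimulated transgenic cells and 9.49 to 10.01 on the other arrays. That array enters the fit, and its part in the lower counts under this scaling was not tested. Without replicate 1 of day 0, 6416 genes were higher and 4194 lower, and the 2-fold counts were 1915 and 1291. The 3 day 0 arrays did not overlap the 3 day 2 arrays in 64.5% of all genes, so the separations reported below describe single genes and are the usual case. The deposited values carry no detection call, and a probe set read below the array median of 5.70 is not shown to be above background, so the size of a change to or from such a level is not exact.

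The 10 largest falls, leaving out clones and predicted genes, came from genes of several functions, and they were chosen among genes whose arrays do not overlap. Rasgef1b, a guanine nucleotide exchange factor of the RAS and RAP family, read 11.27, 11.38 and 11.47 at day 0 and 3.999, 3.98 and 4.04 at day 2, a change of −7.37 ± 0.12 (adjusted p = 3.69e-13). Fosb, a subunit of the AP-1 transcription factor, read 11.02, 10.90 and 11.04 at day 0 and 3.78, 3.88 and 3.84 at day 2 and fell by 7.15. Klf4, a zinc finger factor that restrains B cell division, read 11.64, 11.21 and 11.18 at day 0 and 4.26, 4.46 and 4.45 at day 2 and fell by 6.95. All 3 were bright at day 0 and below the array median at day 2. The other 7 of the 10 largest falls were Rgs2 (−6.07 ± 0.08), Fos (−6.06 ± 0.15), Tsc22d3 (−5.98 ± 0.11), Abca1 (−5.83 ± 0.12), Nr4a1 (−5.81 ± 0.10), Plk2 (−5.30 ± 0.08) and Dusp1 (−5.25 ± 0.10). Probe sets of Plk2 disagreed, with 1 or more called in each direction.

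The 10 largest rises, chosen in the same way, included cell cycle genes and genes of secreted and metabolic proteins. Plpp1, a lipid phosphate phosphatase, read 4.35, 4.34 and 4.55 at day 0 and 9.44, 9.26 and 9.34 at day 2, a change of 4.93 ± 0.10 (adjusted p = 1.97e-12). Fabp5, a fatty acid binding protein, read 7.87, 7.38 and 6.96 at day 0 and 12.04, 12.07 and 12.05 at day 2, a change of 4.65 ± 0.17. Il6, the cytokine interleukin 6, read 3.62, 3.52 and 3.29 at day 0 and 8.13, 8.11 and 7.97 at day 2, a change of 4.60 ± 0.13. Plpp1 and Il6 read below the array median at day 0. Exo1 (4.63 ± 0.13), Bub1 (4.47 ± 0.24), Cdc6 (4.28 ± 0.16) and Melk (4.22 ± 0.19), which act in DNA processing, the spindle checkpoint, replication licensing and mitosis, rose as well. The chemokine gene Ccl22 rose by 4.28 ± 0.12, the guanylate-binding protein gene Gbp2 by 4.58 ± 0.11 and Lad1, a gene of an anchoring filament protein, by 4.26 ± 0.13.

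**Figure D1:**
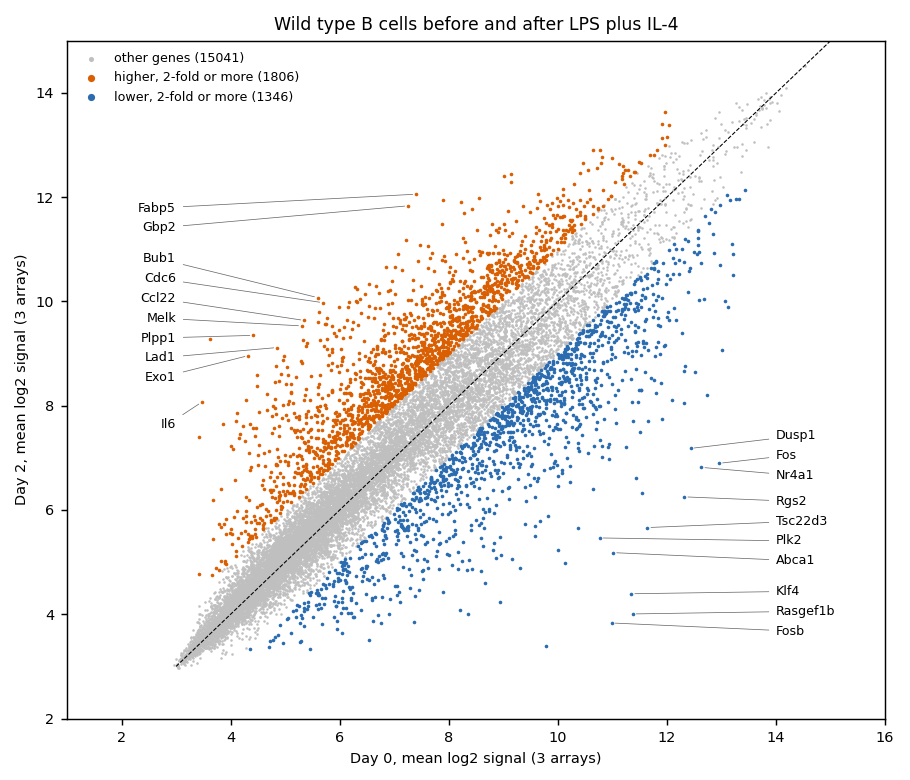
Mean log2 signal of each of 18193 genes in unstimulated wild type B cells (x axis, 3 arrays) against stimulated wild type B cells (y axis, 3 arrays). Genes called higher at 2-fold or more are orange (1806), those called lower at 2-fold or more are blue (1346), the rest are grey, and the 10 largest rises and 10 largest falls are named, leaving out clones and predicted genes, 1 of which rose further than Plpp1.

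The label of the cells was checked against markers. Genes that define B cells were bright in every array: Cd79a, a chain of the B cell receptor, read 12.55, 12.88 and 13.14 at day 0 and 11.09, 11.22 and 10.49 at day 2, and Cd79b, its partner, read 12.73, 12.96 and 12.96 at day 0 and 11.63, 11.77 and 11.72 at day 2. Pou2af1, a B cell coactivator, read 12.31 ± 0.01 at day 0 and 12.17 ± 0.04 at day 2 (mean ± SD), against a median of 5.70 over all probe sets of an array. The T cell receptor gene Cd3e read 6.22 ± 0.48 at day 0 and 6.09 ± 0.08 at day 2. Cd3d, of the same receptor, read 6.50 ± 0.44 at day 0 and 5.71 ± 0.09 at day 2 and was called lower (−0.79 ± 0.20, adjusted p = 0.00414). Of the 19 measured T and NK cell markers 10 lay above that median at day 0 and 10 at day 2.

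A part of the myeloid, granulocyte, erythroid and platelet markers fell between the states, whereas T and NK cell markers moved both ways. The levels of these markers are therefore given beside the results that follow, and their part in those results was not tested. Of 22 measured monocyte, macrophage and dendritic cell markers 13 fell and 1 rose, and their mean level was 6.80 to 7.003 over the day 0 arrays and 5.77 to 5.95 over the day 2 arrays. The lysozyme gene Lyz2 read 11.48, 11.92 and 11.58 at day 0 and 7.72, 7.97 and 7.44 at day 2, and Csf1r, the receptor that defines macrophages, read 9.59, 9.95 and 9.20 at day 0 and 6.24, 6.39 and 6.10 at day 2, with no overlap between the states. Apoe, the apolipoprotein of macrophages, changed by −4.71 ± 0.15, whereas Adgre1, which encodes a macrophage surface antigen, was not called (7.02 ± 0.20 at day 0 and 6.60 ± 0.07 at day 2, adjusted p = 0.0553, or 0.0454 with the replicate number as a block). Of 15 granulocyte markers 8 fell and none rose, from a mean level of 5.88 to 5.95 at day 0 to 5.16 to 5.21 at day 2. Of 11 erythroid markers 6 fell, from 5.73 to 6.26 to 5.20 to 5.27, and of 9 platelet markers 4 fell, from 5.98 to 6.04 to 5.57 to 5.61. The 19 T and NK cell markers lay at 5.69 to 5.97 and 5.70 to 5.77, with 5 higher and 8 lower. Among these, Thy1, a surface protein of T cells that stimulated mouse B cells can also carry, read 5.28, 4.91 and 5.78 at day 0 and 9.21, 9.09 and 9.46 at day 2, a change of 3.93 ± 0.21. In bulk RNA, fewer cells of a type and less RNA per cell cannot be told apart.

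Genes of the IL-4 pathway moved in both directions. Of 22 measured members of the list of receptor chains, STAT6 and IL-4 induced genes, 10 rose and 9 fell, of which 8 and 4 were called in every scaling. Its median change was 0.21, beside 0.08 for all genes, and its sign depended on the scaling, from −0.23 to 0.39. Il4ra, the receptor alpha chain, read 9.28, 9.28 and 9.35 at day 0 and 10.04, 10.20 and 10.28 at day 2, a change of 0.87 ± 0.08 (adjusted p = 6.48e-07). Among the signalling genes further down, Jak1 changed by −1.60 and Stat6 by −0.97, the latter not called with hybridization controls set equal, and Jak3 was not called (0.08). Of 8 genes of the SOCS family of feedback inhibitors 4 rose and 3 fell, and Socs5 fell furthest (−1.32 ± 0.09). Cish, which binds activated cytokine receptors, read 5.66, 5.53 and 5.60 at day 0 and 9.60, 9.63 and 9.58 at day 2, a change of 4.01 ± 0.09, and Socs2 and Socs1, of the same family, changed by 3.92 ± 0.10 and 2.40 ± 0.12. All 3 stood higher in every day 2 array than in any day 0 array. Nfil3, a leucine zipper factor needed for switching to IgE, read 7.58, 7.22 and 7.21 at day 0 and 10.06, 10.21 and 10.39 at day 2, a change of 2.88 ± 0.15. Batf, an AP-1 partner needed for class switching, changed by 2.15 ± 0.12. The vitamin D receptor gene Vdr rose by 1.19 ± 0.12. Irs2, an adaptor of IL-4 and insulin receptors, fell and read 8.62 ± 0.87 at day 0 and 5.85 ± 0.18 at day 2 (mean ± SD). Gfi1, a zinc finger repressor, read 8.89, 8.84 and 8.23 at day 0 and 4.70, 4.35 and 4.76 at day 2, a change of −4.05 ± 0.17. Fcer2a, which encodes CD23, had a change of −0.77 ± 0.11, which turned to 0.18 with array medians subtracted, so its direction is not settled.

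Among genes of LPS recognition, Tlr4, its partner Ly96 and the adaptor genes Myd88 and Ticam1 rose. Of the 22 measured genes of the Toll-like receptor list, however, 13 fell and 5 rose. The median change was −0.43, it was −0.07 with array medians subtracted, and 7 of the falls were called in every scaling. Ly96, which encodes MD-2, read 6.20, 5.66 and 5.53 at day 0 and 7.30, 7.11 and 7.22 at day 2, a change of 1.41 ± 0.17 (adjusted p = 1.2e-05), with every day 2 array above every day 0 array. Myd88, the adaptor, changed by 1.01 ± 0.08, Ticam1, which encodes TRIF, by 0.83 ± 0.11 and Tlr4 itself by 0.71 ± 0.10, which was not called in the deposited values or with hybridization controls set equal. Tlr1, a partner of TLR2, fell and read 9.43 ± 0.18 at day 0 and 7.87 ± 0.03 at day 2, and the TLR chaperone gene Unc93b1 changed by −1.34 ± 0.08. The kinase gene Irak2 changed by −1.67 ± 0.10. Cd14, the LPS co-receptor of macrophages, was not called (6.28 ± 0.28 at day 0 and 5.85 ± 0.06 at day 2, adjusted p = 0.0935, or 0.0455 with the replicate block).

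NF-kB subunits and their regulators were mostly lower at day 2. In this list 14 of 22 genes fell and 7 rose, and the median change of −0.48 reached 0.16 with array medians subtracted, with 6 of the falls and 5 of the rises called in every scaling. Rel, the subunit c-Rel, read 9.89, 9.86 and 9.86 at day 0 and 8.18, 8.24 and 8.20 at day 2, a change of −1.66 ± 0.12 (adjusted p = 5.62e-08). The inhibitors Tnfaip3 (−1.77 ± 0.07) and Nfkbid (−2.23 ± 0.07) and the kinase subunit gene Ikbkb (−1.60 ± 0.09) fell as well. Traf1, an adaptor and known NF-kB target, rose and read 7.11 ± 0.36 at day 0 and 9.59 ± 0.02 at day 2, and Bcl3, an atypical inhibitor family member, changed by 1.21 ± 0.12. Ebi3, a subunit of the cytokines IL-27 and IL-35, changed by 2.86 ± 0.09, and the adhesion gene Icam1 by 0.99 ± 0.11. Nfkbia gave no settled direction: its change of −0.25 ± 0.09 became 0.46 with array medians subtracted and 0.12 with hybridization controls set equal, and its adjusted p was 0.119 without replicate 1 of day 0, 0.0931 without replicate 2 of day 0, 0.0545 without replicate 2 of day 2 and 0.122 without replicate 3 of day 2.

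Immediate early genes and feedback phosphatases were bright in the unstimulated arrays and much lower at day 2. Of 23 measured, 21 fell, 18 of them at least 2-fold, 2 rose, and the median change was −2.06. Fos read 13.03, 12.92 and 12.91 at day 0 and 7.06, 6.94 and 6.68 at day 2 (adjusted p = 6.7e-12), and Jun, its AP-1 partner, read 11.11, 11.64 and 11.74 at day 0 and 8.26, 8.27 and 8.38 at day 2, a change of −3.19 ± 0.18. Egr1, a zinc finger factor induced by receptor signalling, read 11.54, 11.48 and 11.29 at day 0 and 9.07, 9.14 and 8.95 at day 2, a change of −2.38 ± 0.13. Nr4a1, a nuclear receptor and reporter of antigen receptor signalling, read 12.42, 12.75 and 12.71 at day 0 and 6.94, 6.69 and 6.82 at day 2, and Dusp1, a MAP kinase phosphatase, read 12.44, 12.42 and 12.44 at day 0 and 7.30, 7.11 and 7.13 at day 2. In each of these 5 genes all day 0 arrays were higher. Egr3 followed them at −3.65 ± 0.12. Ier3 rose by 0.64 ± 0.11, but neither of the 2 rises was called in every scaling, whereas 19 of the falls were.

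Regulators of quiescence, which keep resting lymphocytes out of the cell cycle, mostly fell. In that list 27 of 31 genes fell and 2 rose, with a median change of −1.80 that lay between −2.06 and −1.44 in the other scalings. Klf2, a zinc finger factor that holds naive lymphocytes in quiescence, read 13.08, 13.09 and 13.21 at day 0 and 9.88, 9.90 and 9.93 at day 2, a change of −3.22 ± 0.07 (adjusted p = 2.69e-12). Txnip, which restrains glucose uptake, read 12.51, 12.61 and 12.41 at day 0 and 8.78, 8.75 and 8.39 at day 2, a change of −3.87 ± 0.11, and the antiproliferative gene Btg1 read 13.25, 13.24 and 13.11 at day 0 and 10.90, 11.02 and 10.79 at day 2, a change of −2.30 ± 0.08. All day 0 arrays of these 3 genes were above all day 2 arrays. Klf6 changed by −5.21 ± 0.10 and Dusp6, an ERK phosphatase, by −3.35 ± 0.09. Foxo1, the forkhead factor inhibited by PI3 kinase, had a change of −1.80 ± 0.08, but its probe sets disagreed, with 1 or more called in each direction. The gene Cdkn1b, which encodes the inhibitor p27, read 9.39, 9.55 and 9.57 at day 0 and 7.002, 7.14 and 6.99 at day 2, a change of −2.46 ± 0.12. Slfn2 was an exception, at 0.94 ± 0.11.

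Receptors that place B cells in lymphoid tissue mostly fell. Of 27 homing receptors and integrins 17 fell and 4 rose, with a median change of −0.80. Ccr7, the receptor for entry into the T cell zone, read 11.84, 11.93 and 11.96 at day 0 and 7.72, 7.74 and 7.78 at day 2, a change of −4.16 ± 0.11 (adjusted p = 1.38e-11). Cxcr4, the receptor for CXCL12, read 12.17, 12.32 and 12.43 at day 0 and 8.32, 8.29 and 7.57 at day 2, a change of −4.25 ± 0.21, and S1pr1, needed for exit into blood and lymph, read 9.41, 10.19 and 10.20 at day 0 and 6.93, 6.98 and 6.81 at day 2, a change of −3.03 ± 0.17. None of the day 2 arrays reached the day 0 range in these receptors. Ccr6 changed by −2.54 ± 0.24 and the integrin gene Itgb7 by −2.38 ± 0.12. Cxcr5, the follicle homing receptor, was not called (10.13 ± 0.22 at day 0 and 9.94 ± 0.04 at day 2). The integrin gene Itgb1 rose by 1.42 ± 0.17 and the scavenger receptor Ackr3 by 1.22 ± 0.21. Among the 16 regulators of G protein signalling, which shorten signals from such receptors, 11 fell. Rgs1 read 10.28, 10.05 and 10.08 at day 0 and 5.14, 4.97 and 4.86 at day 2, a change of −5.15 ± 0.10, and Rgs2 read 12.39, 12.32 and 12.24 at day 0 and 6.32, 6.34 and 6.10 at day 2. Both were far lower in all 3 day 2 arrays.

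**Figure D2:**
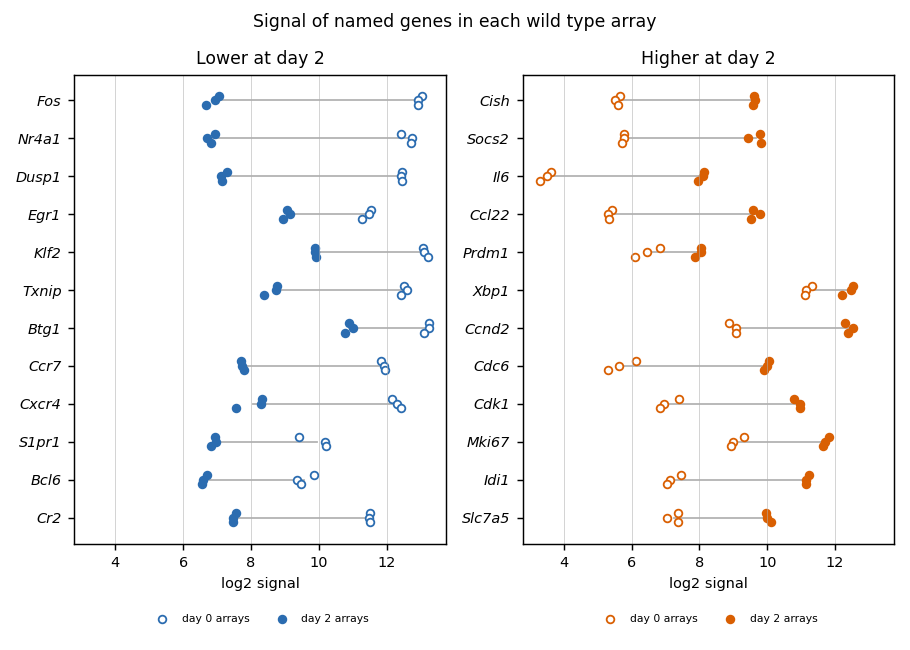
Log2 signal of 24 named genes in each of the 6 wild type arrays, with day 0 arrays as open circles and day 2 arrays as filled circles (3 each) and the group means joined by a line. The early, quiescence and homing genes in the left column, and Bcl6 and Cr2 beside them, fell without overlap between the states. The genes in the right column rose without overlap.

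Components of the B cell receptor pathway mostly fell, and none rose. Of 22 measured, 19 fell, 12 at least 2-fold, and the median change was −1.26 (−1.10 to −0.48 in the other scalings). The fall was called in every scaling for 12 of the 19. Cr2, the complement receptor CD21, read 11.51, 11.49 and 11.51 at day 0 and 7.56, 7.46 and 7.46 at day 2, a change of −4.01 ± 0.07 (adjusted p = 4.93e-13), and Blk, a kinase of the SRC family, changed by −3.29 ± 0.07. Cd79a fell by 1.92, Cd79b by 1.18 and Syk by 1.83. Btk was not called (9.87 ± 0.34 at day 0 and 9.77 ± 0.01 at day 2). Of 15 inhibitory receptors and phosphatases 14 fell. Fcrla, an intracellular Fc receptor homologue, read 11.23, 11.26 and 11.24 at day 0 and 7.30, 7.32 and 6.98 at day 2, a change of −4.04 ± 0.10, and Cd72 (−2.68 ± 0.09), Siglecg (−2.57 ± 0.08) and Btla (−2.56 ± 0.11) fell by less. Cd22 read 12.58, 12.55 and 12.58 at day 0 and 10.99, 11.09 and 11.19 at day 2, a change of −1.49 ± 0.07. Neither list held a member that rose.

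Transcription factors of B cells moved unevenly. 22 of 31 fell and 3 rose (5 without replicate 3 of day 0), and 13 of the falls held in each of the other scalings. Bcl6, the germinal centre repressor, read 9.85, 9.36 and 9.48 at day 0 and 6.71, 6.58 and 6.56 at day 2, a change of −2.95 ± 0.11 (adjusted p = 2.2e-10). Ets1, which holds back plasma cell formation, read 12.31, 12.30 and 12.24 at day 0 and 9.44, 9.42 and 9.34 at day 2, a change of −2.88 ± 0.08, and Ebf1, a B lineage factor, read 10.58, 10.85 and 10.96 at day 0 and 8.46, 8.56 and 8.19 at day 2, a change of −2.39 ± 0.11. The day 2 arrays of all 3 lay below the day 0 arrays. Bhlhe40 changed by −3.03 ± 0.11 and Bach2, a repressor of Prdm1, by −1.53 ± 0.24. Pax5, the B cell identity factor, was not called (8.01 ± 0.10 at day 0 and 7.65 ± 0.26 at day 2, adjusted p = 0.0606, or 0.0386 with the replicate block), nor was Pou2af1 at −0.14. Stat5a rose by 1.40 ± 0.10.

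MHC class II genes mostly fell and class I genes mostly rose. In the class II list 14 of 16 fell and 1 rose, with a median change of −0.97 that was −0.28 with array medians subtracted, and only 6 of the falls and not the rise were called in every scaling. In the class I list 9 of 14 rose and 1 fell, with a median of 0.41. H2-Oa and H2-Ob, the chains of the peptide loading inhibitor H2-O, read 11.89, 11.96 and 11.998 at day 0 and 9.15, 9.19 and 9.12 at day 2 and 12.72, 12.68 and 12.61 at day 0 and 10.15, 10.14 and 9.83 at day 2. Those inhibitor chains fell by 2.80 and 2.63, whereas H2-Ab1, a chain of the presenting molecule I-A, changed by −1.29 ± 0.12 and its partner H2-Aa by −0.89 ± 0.08. Ciita, the class II transactivator, changed by −0.76 ± 0.15, and with hybridization controls set equal neither it nor H2-Aa was called. In the class I pathway the peptide trimming gene Erap1 rose by 1.38 ± 0.09, the immunoproteasome gene Psmb9 by 0.94 ± 0.11 and the peptide transporter gene Tap1 by 0.44 ± 0.07. B2m, the class I light chain, was not called (13.45 ± 0.03 at day 0 and 13.39 ± 0.05 at day 2).

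Costimulatory and activation markers were mixed, with 9 higher (42.9%, beside 35.9% of all genes) and 7 lower (33.3%, beside 24.0%) of 21. Of these, 6 and 4 were called in every scaling. Cd86, the ligand of CD28, read 7.01, 7.26 and 7.36 at day 0 and 8.52, 8.67 and 8.42 at day 2, a change of 1.32 ± 0.10 (adjusted p = 1.25e-07), and Il2ra, the IL-2 receptor alpha chain, read 4.65, 4.56 and 4.55 at day 0 and 6.63, 6.69 and 6.41 at day 2, a change of 1.99 ± 0.10. Tnfsf9, which encodes 4-1BB ligand, changed by 1.99 ± 0.10, the transferrin receptor gene Tfrc by 1.32 ± 0.10 and the death receptor gene Fas by 1.06 ± 0.10. The day 2 arrays of Cd86 and Il2ra were all above the day 0 arrays. Cd80 (0.08) and Cd40 (0.23) were not called by their brightest probe sets. Of their dimmer probe sets, some were called higher (0.45 and 0.37 for Cd80, 0.39 for Cd40) and the rest were not called. Icosl, the ligand of ICOS, read 9.85, 9.83 and 10.33 at day 0 and 6.47, 6.49 and 6.42 at day 2, a change of −3.55 ± 0.12, and Cd274, which encodes PD-L1, changed by −2.77 ± 0.11. Cd69, an early activation marker, read 11.88, 11.76 and 11.85 at day 0 and 9.68, 9.78 and 9.60 at day 2, a change of −2.14 ± 0.07, with every day 0 array above every day 2 array. Cd83 had a change of −0.22 ± 0.07, which became 0.56 with array medians subtracted and 0.23 with hybridization controls set equal. Its adjusted p was 0.0559 without replicate 1 of day 0 and 0.0565 without replicate 2 of day 2. Among BCL2 family genes, the survival gene Bcl2l1 rose by 1.47 ± 0.11, Bcl2 changed by −1.02 ± 0.09 and the death gene Pmaip1 by −2.78 ± 0.13. Mcl1 had a change of −0.68 ± 0.07 that turned to 0.23 with array medians subtracted.

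Genes of class switching and DNA break repair rose in majority, 20 of 27 against 4 that fell, with a median change of 0.77. Exo1, an exonuclease used in switch recombination and mismatch repair, read 4.57, 4.04 and 4.37 at day 0 and 8.97, 8.90 and 9.01 at day 2 (adjusted p = 1.58e-11), a change of 4.63 ± 0.13. It lay below the array median at day 0, and its 2 other probe sets changed by 2.05 and 0.27. Brca1 changed by 2.56 ± 0.14, Xrcc6, which encodes the end joining protein Ku70, by 2.11 ± 0.08 and Ung, the uracil glycosylase of the switch reaction, by 0.70 ± 0.12. Trp53bp1, which encodes 53BP1, changed by −0.63 ± 0.12, and was not called with array medians subtracted or hybridization controls set equal.

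Genes of the plasma cell programme moved in both directions. Of 19 genes 7 rose (36.8%, beside 35.9% of all genes) and 9 fell (47.4%, beside 24.0% of all genes). Prdm1, which encodes the repressor Blimp-1, read 6.85, 6.45 and 6.09 at day 0 and 8.06, 8.05 and 7.88 at day 2, a change of 1.53 ± 0.15 (adjusted p = 1.73e-06), and Xbp1, the factor of the secretory apparatus, read 11.31, 11.13 and 11.10 at day 0 and 12.52, 12.48 and 12.21 at day 2, a change of 1.22 ± 0.09. Both were higher in all day 2 arrays. Slamf7 changed by 1.54 ± 0.07 and Ell2, an elongation factor used for secretory immunoglobulin RNA, by 1.30 ± 0.09. Irf4, a factor that rises with plasma cell formation, read 11.24, 11.59 and 11.42 at day 0 and 10.20, 10.14 and 10.22 at day 2, a change of −1.23 ± 0.10. Its dimmer probe set was not called (−0.19). Jchain, the joining chain of polymeric antibody, read 13.09, 13.01 and 12.82 at day 0 and 10.84, 10.85 and 10.42 at day 2, a change of −2.27 ± 0.12, and Sdc1, which encodes CD138, changed by −0.46 ± 0.12 and was not called with array medians subtracted or hybridization controls set equal. Irf4 and Jchain were lower in all day 2 arrays. Of the heavy chain genes Ighg3 changed by −1.36 ± 0.26 and Igha by −1.65 ± 0.12. The other Ighg3 probe sets were not called (−0.055, −0.073 and 0.197). Of 12 listed immunoglobulin and J chain genes 4 were measured. The heavy chain genes of IgG1 and IgE were not among them, so switching to these is not described here. The brightest Ighm probe set ranked first on all 6 wild type arrays, so quantile normalization gave it 14.52 on each, and its change of 0.00 follows from that rank. Of the 11 Ighm probe sets 5 were higher and 1 lower, with changes from −2.10 to 3.59.

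Cell cycle genes rose in large numbers. Among cyclins, kinases and inhibitors of the G1 phase, 13 of 20 rose and 6 fell. Ccnd2, the D cyclin of B cells, read 8.87, 9.08 and 9.08 at day 0 and 12.31, 12.54 and 12.37 at day 2, a change of 3.40 ± 0.10 (adjusted p = 1.81e-11), and Ccne2, an E cyclin, read 4.52, 4.18 and 4.13 at day 0 and 8.21, 8.08 and 8.01 at day 2, a change of 3.83 ± 0.10. Neither gene's groups overlapped. Cdk4 changed by 1.88 ± 0.13, Ccna2 by 3.45 ± 0.09 and the inhibitor gene Cdkn2b by 3.23 ± 0.11. The retinoblastoma family gene Rbl2 changed by −1.21 ± 0.09, opposite to Rbl1 at 1.34 ± 0.14. The E2F and DREAM complex list, which is unrelated to the calcium-binding DREAM of the transgene, had 11 of 14 members higher and 1 lower. E2f8 (3.81 ± 0.14), Mybl2 (3.80 ± 0.11) and Tfdp1 (2.95 ± 0.09) rose most, and E2f1 changed by 1.19 ± 0.12.

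DNA replication genes rose in 40 of 44 cases, 36 of them at least 2-fold, with 1 lower and a median change of 1.76. Cdc6, which loads the replicative helicase, read 6.14, 5.64 and 5.31 at day 0 and 10.05, 9.98 and 9.89 at day 2 (adjusted p = 1.8e-10), and Mcm6, a helicase subunit, read 9.75, 9.59 and 9.65 at day 0 and 11.79, 11.91 and 12.07 at day 2, a change of 2.26 ± 0.09. Mcm5 read 9.92, 9.79 and 9.68 at day 0 and 11.87, 11.88 and 11.81 at day 2, a change of 2.05 ± 0.10, and Pcna, the sliding clamp, read 11.98, 11.99 and 11.76 at day 0 and 13.09, 13.12 and 13.18 at day 2, a change of 1.22 ± 0.08. Every day 2 array lay above every day 0 array in these 4 genes. Cdt1, a licensing factor, was the 1 member that fell, at −1.13 ± 0.10, a call lost with array medians subtracted and with hybridization controls set equal. In nucleotide synthesis 26 of 29 genes rose, led by Rrm2, a subunit of ribonucleotide reductase, which read 8.23, 7.76 and 7.70 at day 0 and 11.97, 11.89 and 11.96 at day 2, a change of 4.04 ± 0.12.

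Mitotic genes had a median change of 3.07, the highest of the 57 lists, and it lay between 2.83 and 3.45 in the other scalings. 56 of 57 rose, 52 at least 2-fold and 1, Cdc25b, fell (−0.50 ± 0.07, not called with array medians subtracted or hybridization controls set equal). Cdk1, the kinase of mitotic entry, read 7.40, 6.96 and 6.83 at day 0 and 10.80, 10.96 and 10.97 at day 2, a change of 3.85 ± 0.13 (adjusted p = 7.97e-11), and Top2a, the mitotic topoisomerase, read 8.70, 8.19 and 7.93 at day 0 and 11.69, 11.65 and 11.74 at day 2, a change of 3.42 ± 0.15. The proliferation marker Mki67 read 9.31, 9.004 and 8.94 at day 0 and 11.83, 11.71 and 11.65 at day 2, a change of 2.64 ± 0.12, and Aurkb, a kinase of chromosome segregation, read 6.32, 6.22 and 6.29 at day 0 and 10.23, 10.31 and 10.31 at day 2, a change of 4.01 ± 0.09. In none of these genes did the states overlap. Hmmr (4.17 ± 0.09), Kif4 (3.92 ± 0.10), Tpx2 (3.91 ± 0.16) and Kif22 (3.62 ± 0.13) build or move along the spindle.

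Promoter sequences of 4 cell cycle genes are shown because short motifs recur upstream of the lists that rose. Cdk1 and Kif22 were taken as the mitotic genes of largest rise whose 250 bases before the start hold both the cell cycle element TTTGAA (called CHR) and CCAAT, and Cdc6 and Mcm6 as the replication genes of largest rise with an E2F motif there. A chromosome that holds none of these 4 genes was left out of this choice, so larger rises there were not considered. The motifs are not split between the classes, since Cdk1 also holds an E2F motif and Mcm6 also holds CCAAT. The sequences are RefSeq's for GRCm38.p6, printed 5′ to 3′ on the strand of the gene, with every CHR, CCAAT and E2F motif of either strand in capitals. Cdk1 lies at chr10:69352913-69353162 (minus strand), Kif22 at chr7:127042421-127042670 (minus strand), Cdc6 at chr11:98907901-98908150 (plus strand) and Mcm6 at chr1:128359706-128359955 (minus strand), each window directly upstream of the annotated start.
Cdk1: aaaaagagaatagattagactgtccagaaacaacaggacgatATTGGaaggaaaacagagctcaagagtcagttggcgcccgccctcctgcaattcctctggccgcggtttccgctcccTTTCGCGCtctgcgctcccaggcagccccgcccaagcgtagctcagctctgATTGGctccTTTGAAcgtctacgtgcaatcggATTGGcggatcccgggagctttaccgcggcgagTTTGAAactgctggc
Kif22: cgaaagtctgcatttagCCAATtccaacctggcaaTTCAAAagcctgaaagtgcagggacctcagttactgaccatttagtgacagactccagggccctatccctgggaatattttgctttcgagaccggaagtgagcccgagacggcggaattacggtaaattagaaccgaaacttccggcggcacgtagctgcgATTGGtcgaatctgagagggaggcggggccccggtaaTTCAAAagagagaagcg
Cdc6: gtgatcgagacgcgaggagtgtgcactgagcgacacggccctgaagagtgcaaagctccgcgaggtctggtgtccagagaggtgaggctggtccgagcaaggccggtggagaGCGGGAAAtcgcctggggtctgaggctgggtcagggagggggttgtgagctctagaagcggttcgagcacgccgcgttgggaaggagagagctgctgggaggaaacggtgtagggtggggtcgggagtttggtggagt
Mcm6: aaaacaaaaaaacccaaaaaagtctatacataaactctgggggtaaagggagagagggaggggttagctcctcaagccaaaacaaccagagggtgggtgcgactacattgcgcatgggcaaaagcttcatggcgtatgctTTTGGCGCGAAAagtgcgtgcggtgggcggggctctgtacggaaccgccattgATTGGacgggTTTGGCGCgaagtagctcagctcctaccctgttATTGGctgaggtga

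In these windows CHR stood at −71 and −15 from the start of Cdk1, beside CCAAT at −208, −80 and −48 and an E2F motif at −131. Kif22 had CHR at −215 and −17 and CCAAT at −233 and −54. Cdc6 had 1 E2F motif at −138, and Mcm6 had 3 at −110, −106 and −47, the first 2 of which overlap, and CCAAT at −57 and −14. Windows of 300 bases (250 before to 50 after the start) were searched on both strands for CHR, for CCAAT, for the E2F motifs TTTGGCGC, TTTCCCGC, TTTGCCGC and TTTCGCGC, for the STAT6 motif (TTC and GAA with any 4 bases between) and for CACGTG. Of 55 promoters of 50 mitotic genes 60.0% held both CHR and CCAAT, beside 6.95% of all 32851 promoters and 5.23% of those of genes on the array. E2F motifs were in 33.3% of 42 promoters of 35 replication genes, beside 2.27% of all promoters, and in 7.27% of mitotic promoters. The share with E2F was 6.24% among genes higher at least 2-fold, 2.56% among those lower at least 2-fold and 2.49% among those not called. STAT6 motifs were in 3 of 22 promoters of the IL-4 list (13.6%), beside 6.95% of all. The other lists searched ran from 0.0% (immediate early genes) to 13.3% (E2F factors), with 12.7% in mitotic promoters. The share is thus not particular to the IL-4 list. A match is a description of the letters in a window and not evidence of a bound factor.

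Chromatin genes tied to replication rose too. Uhrf1, which recruits the maintenance methyltransferase, changed by 3.80 ± 0.11, Hells by 3.81 ± 0.18 and Ezh2, the Polycomb methyltransferase, by 2.87 ± 0.10, and Dnmt1 read 9.31, 8.96 and 9.10 at day 0 and 10.77, 10.59 and 10.69 at day 2, a change of 1.56 ± 0.10 (adjusted p = 3.99e-08). All day 2 arrays of Dnmt1 were higher. Ezh1, the paralogue of resting cells, fell by 1.48 and the dioxygenase gene Tet2 by 1.53. In this list 15 of 26 rose and 6 fell.

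Genes of cell growth mostly rose, except for cytosolic ribosomal proteins. For ribosome biogenesis 53 of 55 genes rose and none fell, with a median change of 1.38. Polr1b, a subunit of RNA polymerase I, read 7.12, 7.002 and 6.95 at day 0 and 9.49, 9.55 and 9.52 at day 2, a change of 2.49 ± 0.08 (adjusted p = 5.41e-11), and Ncl, which encodes nucleolin, read 11.90, 12.07 and 11.91 at day 0 and 12.95, 13.06 and 12.97 at day 2, a change of 1.03 ± 0.08. The states did not overlap in either. Mitochondrial ribosomal proteins rose in 75 of 76 cases (median 1.24), led by Mrps6 at 3.19 ± 0.16. For cytosolic ribosomal proteins 11 of 43 rose, 8 fell, and the median was −0.01, with only 3 rises and 1 fall called in every scaling. Rpl7l1 (2.40 ± 0.07) and Rpl14 (1.67 ± 0.33) were the largest rises. Of 16 tRNA synthetases 14 rose and none fell, led by Tars at 1.80 ± 0.10, and of 44 initiation factors 33 rose and 4 fell. Among proteasome subunits 36 of 39 rose and none fell, with Psmd7 at 2.13 ± 0.13, and among chaperones 25 of 26 rose and none fell, with Hspd1, the mitochondrial chaperonin, at 2.27 ± 0.09. Myc, the factor that drives many of these genes, read 11.11, 10.89 and 11.20 at day 0 and 9.75, 9.72 and 9.97 at day 2, a change of −1.25 ± 0.12, so its transcript was lower at day 2 than at day 0 in all arrays. Its antagonists Mxd4 (−1.75 ± 0.18) and Mnt (−2.59 ± 0.08) were lower as well, although probe sets of Mnt disagreed, and Mycn was not called (0.05).

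**Figure D3:**
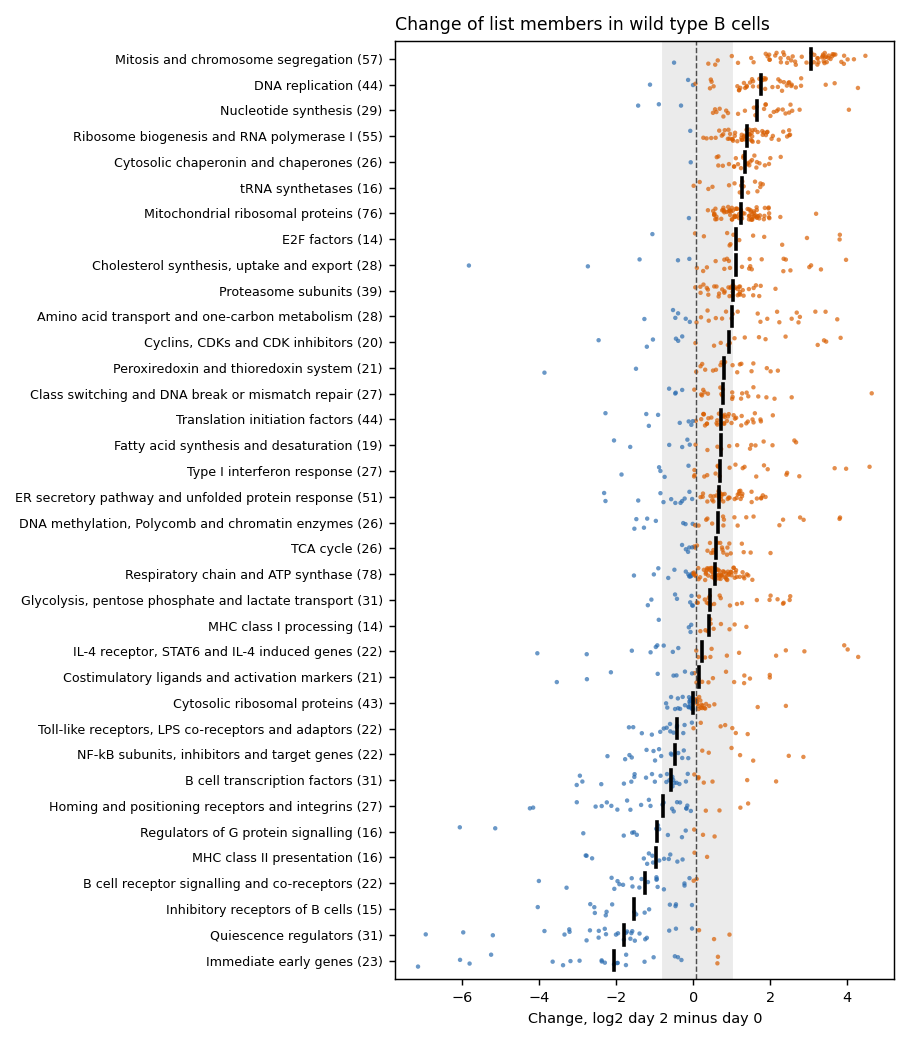
Change of each measured member (points) of 36 gene lists between day 0 and day 2 of wild type B cells, as log2 day 2 minus day 0, with the median of each list as a black bar. The dashed line is the median of all 18193 genes (0.08) and the grey band spans their 10th to 90th percentile (−0.79 to 0.99). Of the 36 lists drawn, mitosis has the highest median and immediate early genes the lowest.

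Transcripts of sterol synthesis rose and those of sterol export fell. Of 28 genes 21 rose, 14 at least 2-fold, and 4 fell. Idi1, an enzyme of isoprenoid synthesis, read 7.45, 7.13 and 7.04 at day 0 and 11.24, 11.14 and 11.14 at day 2, a change of 3.97 ± 0.13 (adjusted p = 7.97e-11). Sqle, an oxygenase that limits sterol synthesis, changed by 3.06 ± 0.13, Fdps by 3.31 ± 0.12 and Msmo1 by 3.01 ± 0.12. The 4 members that fell handle sterol export, transport and uptake. Abca1, the cholesterol exporter, read 11.03, 11.04 and 10.96 at day 0 and 5.23, 5.05 and 5.26 at day 2, a change of −5.83 ± 0.12 to a level below the array median, and Abcg1, a second exporter, read 9.23, 9.29 and 9.52 at day 0 and 7.98, 7.88 and 7.995 at day 2, a change of −1.40 ± 0.08. Mylip, a ubiquitin ligase gene of sterol regulation, changed by −2.74 ± 0.10. The states did not overlap in Idi1, Abca1 or Abcg1. The regulator genes Srebf1 (0.09) and Srebf2 (−0.10) were not called. In fatty acid metabolism 12 of 19 rose, with the desaturase gene Fads1 at 2.67 ± 0.09 and Fasn, the fatty acid synthase, at 1.83 ± 0.08. The carnitine transferase gene Cpt1a, of fatty acid oxidation, changed by −2.06 ± 0.17 and the desaturase gene Scd1 by −1.64 ± 0.08.

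Amino acid and one-carbon metabolism rose in 20 of 28 genes, and 4 fell. Asns, asparagine synthetase, changed by 3.74 ± 0.14, the spermidine synthase gene Srm by 3.44 ± 0.14 and Psat1, of serine synthesis, by 3.17 ± 0.13. Slc7a5, an amino acid transporter, read 7.36, 7.05 and 7.38 at day 0 and 9.97, 10.002 and 10.11 at day 2, a change of 2.77 ± 0.09 (adjusted p = 7.33e-11), and Mthfd2, the mitochondrial folate enzyme, read 7.33, 7.23 and 7.34 at day 0 and 10.23, 10.002 and 9.87 at day 2, a change of 2.73 ± 0.09. Both were higher in every day 2 array. Slc3a2, the partner chain of Slc7a5, had a change of −0.47 ± 0.08 that became 0.43 with array medians subtracted and 0.10 with hybridization controls set equal. Odc1 was not called (0.08).

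In glycolysis 19 of 31 genes rose and 4 fell. Hk2, a hexokinase, read 7.59, 7.15 and 6.88 at day 0 and 9.54, 9.52 and 9.61 at day 2, a change of 2.35 ± 0.13 (adjusted p = 8.55e-09), and Ldha, lactate dehydrogenase, read 9.98, 9.89 and 10.08 at day 0 and 11.98, 11.96 and 12.02 at day 2, a change of 2.01 ± 0.08. The lactate transporter gene Slc16a1 changed by 2.52 ± 0.14 and Tpi1 by 2.50 ± 0.10. Hk2 and Ldha were higher in all day 2 arrays. Slc2a1, the glucose transporter GLUT1, had a change of −0.47 ± 0.11 that turned to 0.22 with array medians subtracted. Oxidative phosphorylation rose in 57 of 78 genes and fell in 5, with a median of 0.57 against 1.38 for ribosome biogenesis. Atp5g1 (1.53 ± 0.09) and Cyc1 (1.39 ± 0.09) were among the largest rises, and Cox7c fell (−1.54 ± 0.11). In the citric acid cycle 18 of 26 rose, and Idh3a changed by 2.005 ± 0.10.

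Genes of the secretory pathway mostly rose. 36 of 51 genes of the endoplasmic reticulum and unfolded protein response rose and 8 fell, with a median change of 0.68. Sdf2l1 (1.88 ± 0.19), Manf (1.76 ± 0.08) and Creld2 (1.65 ± 0.09), which fold or retain proteins in the endoplasmic reticulum, were among the largest rises, beside the translocon gene Ssr2 (1.80 ± 0.13). Eif2ak3, which encodes the stress sensor PERK, changed by −2.28 ± 0.09, its downstream factor gene Ddit3 by −1.43 ± 0.09 and the cochaperone gene Dnajb9 by −2.32 ± 0.09. CCAAT stood in 76.7% of 43 promoters of 40 of these genes, beside 37.4% of all promoters. In the other lists searched the share ran from 14.8% (NF-kB) to 74.5% (mitosis).

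Interferon response genes rose in 17 of 27 cases and fell in 4. Gbp2 read 7.49, 7.17 and 7.11 at day 0 and 11.86, 11.79 and 11.86 at day 2 (adjusted p = 6.61e-12), and Ifit1, an inhibitor of foreign RNA translation, read 5.29, 4.69 and 4.95 at day 0 and 8.98, 9.06 and 8.79 at day 2, a change of 3.97 ± 0.15. Neither overlapped between the states. Ifih1, the RNA sensor MDA5, changed by 3.67 ± 0.16 and the deubiquitinase gene Usp18 by 2.75 ± 0.19. Irf2, a repressor of the family, changed by −1.87 ± 0.11. Cytokine and chemokine genes were split, 10 higher and 10 lower of 31 (32.3% each, beside 35.9% and 24.0% of all genes). Of these, 6 and 7 were called in every scaling. Ccl22, a chemokine for CCR4, read 5.42, 5.31 and 5.32 at day 0 and 9.58, 9.79 and 9.54 at day 2, and Mif changed by 2.13 ± 0.11, Cxcl10 by 1.49 ± 0.12 and Tnf by 1.31 ± 0.08. Ltb, which encodes lymphotoxin beta, read 12.25, 12.39 and 12.36 at day 0 and 8.68, 8.90 and 8.68 at day 2, a change of −3.58 ± 0.16, and Il18 changed by −3.48 ± 0.14 and Il12a by −2.60 ± 0.10. Day 2 arrays lay above day 0 arrays in Ccl22 and below them in Ltb.

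**Figure D4:**
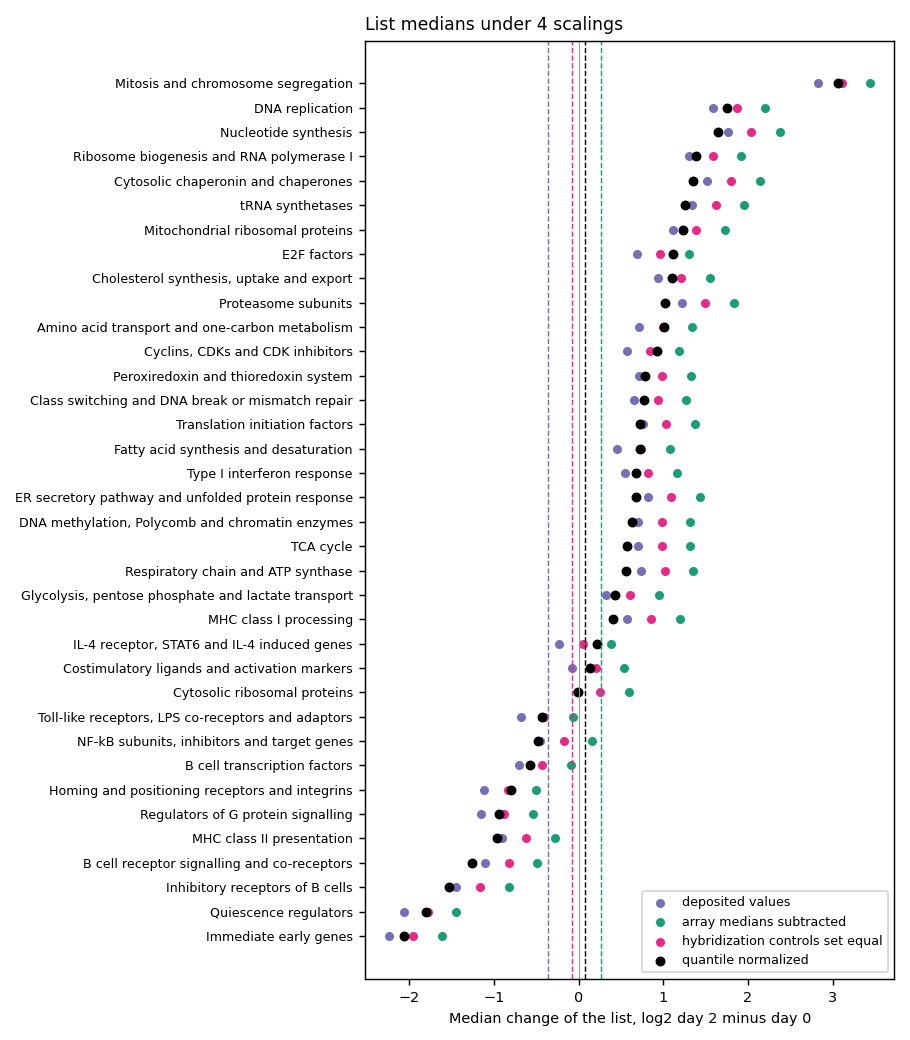
Median change (log2 day 2 minus day 0) of 36 gene lists under the quantile normalization used here (black) and 3 other scalings (coloured), with the median of all genes under each as a dashed line of the same colour. Among the 3 other scalings all lists shift together, whereas the step from the deposited to the quantile normalized values differs in direction between lists. Lists such as mitosis and ribosome biogenesis stay right of 0 in all 4, and immediate early and quiescence genes stay left of it.

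The response of the wild type cells was set against that of the EFLmDREAM cells only to find where it differs. Over the 18193 genes the 2 sets of changes correlated with r = 0.943, which is across genes within 4 groups and not across replicates. The interaction of day and genotype was called in 413 genes (2.27%), and 346 of these were also called in wild type cells. Over probe sets the count of 798 became 1685 without replicate 3 of day 0, 517, 422 and 460 without replicates 1, 2 and 3 of day 2, and 84 with hybridization controls set equal. In those controls replicate 1 of stimulated transgenic cells stood apart, at 8.72 against 9.49 to 10.01 on the other arrays. Its part in the count of 84 was not tested. Of the 6 genes named by interaction, S100a9 and Ngp, given below, had the largest differences, and Ccnb1ip1, Lad1 and Gbp2b rose in wild type cells. Ccnb1ip1, a cyclin B1 interacting protein, changed by 3.56 ± 0.09 in wild type and −0.04 ± 0.09 in transgenic cells (interaction 3.60 ± 0.13, adjusted p = 7.65e-08), and Lad1 by 4.26 ± 0.13 and 1.05 ± 0.13 (interaction 3.21 ± 0.19, adjusted p = 4.32e-06). Gbp2b changed by 3.05 ± 0.13 and 0.07 ± 0.13. Ccnb1ip1 read 4.87, 4.55 and 4.55 at day 0 and 8.20, 8.24 and 8.21 at day 2 in wild type cells, without overlap. The granulocyte genes S100a8, S100a9 and Ngp fell less in wild type than in transgenic cells, with changes of −2.26 and −5.51 in S100a8, −1.56 and −5.72 in S100a9 and −1.37 and −5.50 in Ngp. In wild type cells Ngp read 6.05, 6.25 and 6.21 at day 0 and was below the array median at day 2, so its possible fall was limited. Starting levels in the 2 genotypes were not compared. Of the 15 granulocyte markers 13 had a called interaction, and their part in other genotype differences was not tested. Of 57 mitotic genes 3 (5.26%), of 44 replication genes 1 (2.27%) and of 55 ribosome biogenesis genes 3 (5.5%) had one, beside 2.27% of all genes. Few genes were called in general, so these counts do not show that the lists respond alike in the 2 genotypes.

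**Figure D5:**
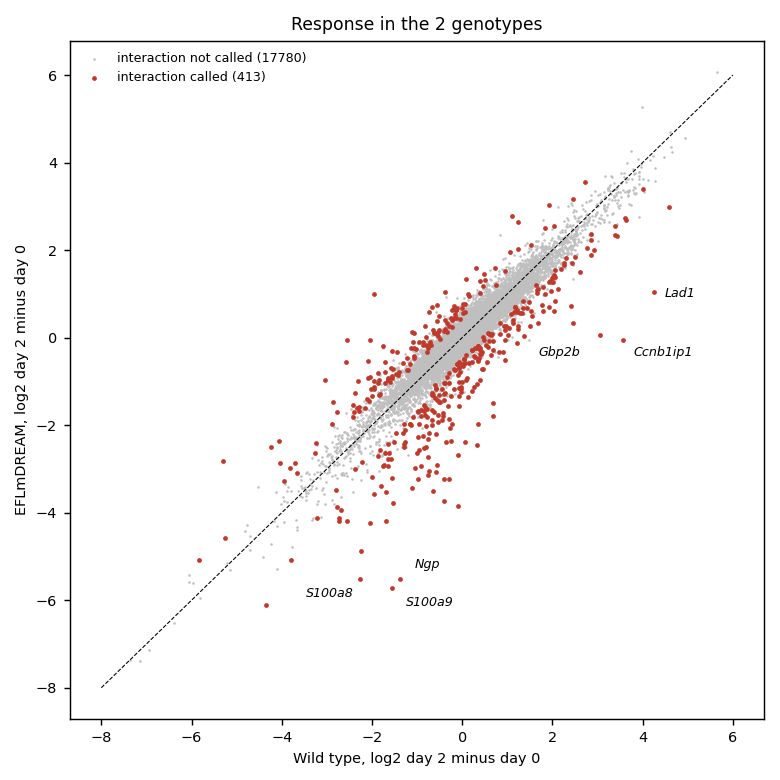
Change between day 0 and day 2 in wild type (x axis) and EFLmDREAM transgenic (y axis) B cells for 18193 genes, as log2 day 2 minus day 0, each from 3 against 3 arrays. Red points are the 413 genes with a called interaction, the dashed line marks equal change, and the 6 interaction genes named in the text carry labels.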

How the data were processed

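The values are log2 probe set summaries as deposited; per the submitters' processing notes they were made with RMA of the affy package, while versions and whether all arrays were normalized in 1 run are not given in the sources used here. Medians and sorted values differed between the states (root mean square distance up to 0.0577 within a state and 0.457 to 0.494 between them), so the 12 arrays were quantile normalized together and 64 array controls left out. Linear models were fitted in limma 3.58.1 (R 4.3.3) to the 12 arrays, each group having its own coefficient, with 8 residual and 4.56 prior degrees of freedom, 2-sided tests and Benjamini-Hochberg adjustment over 45037 probe sets. A single symbol was given for 34945 probe sets in the platform annotation, several for 932 and none for 9160. Of 9010 genes with several probe sets, 1318 had 1 or more called in each direction. The procedure was tested on simulated data.

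The wild type arrays, the 57 gene lists and the set of B cell genes were chosen with earlier results of these data known. Genes named are the 10 largest rises and 10 largest falls without overlap of the arrays, up to 5 called rises and 5 called falls per list, up to 3 members not called per list by level, that set of B cell genes and 6 genes by interaction; clones and predicted genes were skipped. Eif2s3y, Xist, Cd3e, Kif22, Mcm6, Syk, Ciita, H2-Aa, Vdr, Tnf, Ung, Fas, Tap1, Cdk4 and Rbl1 stand outside this rule and were named for their role or sequence after their values were seen. Genes that share their probe sets with another symbol, or have none, were not used here. Promoters are from a RefSeq table of GRCm38.p6, matched by symbol for 14452 of the genes on the array. Alternatives were 3 other scalings, the wild type arrays alone, the replicate number as a block, a trended robust prior, dim probe sets left out, each array left out and the mean over the probe sets of a gene. Same-numbered arrays of the 2 wild type groups deviated together (r = 0.327, 0.176 and 0.219 for numbers 1, 2 and 3, others −0.248 to 0.091). They may therefore be paired by number, although the labels name no pairing. Changes, SE and adjusted p are from the fit without the block unless stated. In the block fit each number had 1 effect shared by wild type and transgenic groups, so a pairing of the wild type arrays alone was not fitted.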

Additional observations from a re-analysis of the deposited data

Results flagged for a closer look

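The wild type response of the genes below differed from that of EFLmDREAM cells in the interaction of limma at an adjusted p under 0.05. Values are wild type change minus transgenic change on the log2 scale ± SE, with 3 arrays in each of the 4 groups. The difference was 3.60 ± 0.13 for Ccnb1ip1, 3.21 ± 0.19 for Lad1 and 2.98 ± 0.18 for Gbp2b, which had the larger rise in wild type cells. The granulocyte genes S100a9 (4.16 ± 0.26), Ngp (4.14 ± 0.25) and S100a8 (3.25 ± 0.26) had the smaller fall in wild type cells. There Ngp started near the array median, at 6.05, 6.25 and 6.21, and starting levels in the 2 genotypes were not compared. Of the 15 granulocyte markers measured 13 had a called interaction, and the part of such cells in these values was not tested.

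Other genes had the more negative change in wild type cells. The difference was −2.47 ± 0.12 for Plk2, −1.75 ± 0.30 for Cxcr4, −1.69 ± 0.25 for Gfi1, −1.26 ± 0.13 for Tlr1 and −1.19 ± 0.14 for Fcrla. It was −0.83 ± 0.16 for Irf2, −0.75 ± 0.17 for Abca1, −0.72 ± 0.11 for Scd1, −0.68 ± 0.14 for Dusp1, −0.60 ± 0.13 for Eif2ak3, −0.58 ± 0.12 for Ddit3 and −0.48 ± 0.11 for Cdc25b, whose own change in transgenic cells was −0.02 ± 0.07. Trp53bp1 changed by −0.63 ± 0.12 in wild type and 0.10 ± 0.12 in transgenic cells, a difference of −0.72 ± 0.17.

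The larger rise was in wild type cells for Gbp2 (1.60 ± 0.16), Ebi3 (0.97 ± 0.12), Ccnd2 (0.83 ± 0.14) and Cd86 (0.76 ± 0.14). The same held for Polr1b (0.64 ± 0.11), Idh3a (0.63 ± 0.14), Cish (0.61 ± 0.12) and Mcm6 (0.56 ± 0.12). Ackr3 changed by 1.22 ± 0.21 in wild type and −0.13 ± 0.21 in transgenic cells, a difference of 1.35 ± 0.30. The smaller fall was in wild type cells for Anxa1 (1.30 ± 0.21), Igha (1.12 ± 0.17), Klf2 (0.89 ± 0.10) and Nfkbid (0.62 ± 0.11).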

How the results depend on the processing

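Scaling moved the counts of called genes. In the deposited values 6363 probe sets were higher and 29192 lower (3466 and 10967 genes, with 2280 genes lower at least 2-fold). With array medians subtracted 21404 probe sets were higher, and 2946 genes were higher and 852 lower at least 2-fold. With hybridization controls set equal 12693 probe sets were called (5203 higher, 7490 lower), 5206 genes (2824 higher, 2382 lower) and 84 probe sets in the interaction. This scaling rests on controls that were low on 1 array, replicate 1 of stimulated transgenic cells (8.72, against 9.49 to 10.01 on the others). Leaving out 1 wild type array gave 422 to 1685 probe sets in the interaction, 23253 to 25110 called probe sets (12492 to 13627 higher, 10761 to 11558 lower) and 9967 to 10771 called genes, and the genes of at least 2-fold lay between 1762 and 1915 higher and between 1291 and 1400 lower. Of the 245 named genes checked, which leave out Xist, 6 turned direction with array medians subtracted: Cd83 (0.56), Fcer2a (0.18), Mcl1 (0.23), Nfkbia (0.46), Slc2a1 (0.22) and Slc3a2 (0.43). With hybridization controls set equal Cd83 (0.23), Nfkbia (0.12) and Slc3a2 (0.10) did so, 12 other genes were no longer called and 3 were newly called. With array medians subtracted 4 other genes were no longer called and 11 were newly called. In the deposited values 4 were no longer called and 8 were newly called. None turned under the 13 settings that kept the quantile normalization or the deposited values. With the replicate number as a block 25767 probe sets were called (13880 higher, 11887 lower), and of the named genes checked the block changed the calls of Adgre1, Cd14, Pax5 and Eif2s3y alone. The cause of these shifts was not tested. Levels near the median of an array limit what can be said of dim genes, and 3 arrays per group limit the precision of small changes.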

Other observations

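Genes of lysosomes, calcium signalling and surface adhesion were not described above. Of 28 measured genes of lysosomes, autophagy and cathepsins 18 fell and 3 rose, with a median change of −0.65, and the median was below 0 in each of the other scalings (−0.76 to −0.14), although 10 of the falls were called in every scaling. Without replicate 2 of day 2 only 1 of the rises was called. Map1lc3a, an autophagosome protein of the ATG8 family, read 9.86, 9.42 and 9.95 at day 0 and 7.29, 7.43 and 7.26 at day 2, a change of −2.42 ± 0.12 (adjusted p = 2.72e-09), and the cathepsin gene Ctsh changed by −1.69 ± 0.08 and the autophagy receptor gene Sqstm1 by −1.64 ± 0.10. Annexins, galectins and lymphoid S100 genes fell in 10 of 17 cases and rose in 2. Anxa1 read 8.88, 9.07 and 8.65 at day 0 and 4.96, 5.01 and 5.26 at day 2, a change of −3.79 ± 0.15, and S100a4 changed by −3.12 ± 0.25 and Lgals3 by −2.44 ± 0.14. Every day 0 array of Map1lc3a and Anxa1 was above every day 2 array. Macrophage markers fell over the same interval, as given above, and their part in these falls was not tested. Among calcium signalling genes and KChIP family members 5 of 18 rose and 7 fell (27.8% and 38.9%, beside 35.9% and 24.0% of all genes). Orai2, a pore subunit of store operated calcium entry, read 7.89, 7.89 and 7.75 at day 0 and 5.36, 5.50 and 5.27 at day 2, a change of −2.47 ± 0.13. The calcium pump gene Atp2a2 rose by 1.59 ± 0.09 in its brightest probe set alone, and its other probe sets were not called (−0.22 to 0.10). Kcnip3, which encodes DREAM itself, was not called in wild type cells (6.62 ± 0.28 at day 0 and 6.88 ± 0.07 at day 2).

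Thiol antioxidant genes rose in 16 of 21 cases and fell in 2. Txn1, thioredoxin, read 10.66, 10.26 and 10.45 at day 0 and 12.70, 12.65 and 12.59 at day 2, a change of 2.20 ± 0.09 (adjusted p = 5.42e-10), and its reductase gene Txnrd1 changed by 1.91 ± 0.09, whereas the catalase gene Cat fell (−1.49 ± 0.10). Markers of B cell subsets moved in both directions within each list, and differences between the lists were not tested. Of 9 follicular markers 7 fell and 1 rose, and of 15 marginal zone markers 8 fell and 4 rose, with 7 and 1 called in every scaling. Cd55, the complement decay factor, read 11.42, 11.43 and 11.42 at day 0 and 6.63, 6.56 and 6.62 at day 2, a change of −4.82 ± 0.07, and Cd1d1, the lipid antigen presenter, changed by −2.56 ± 0.12. In the B-1 cell list 3 of 12 rose and 5 fell. Zbtb32, a zinc finger repressor of that list, read 6.37, 6.07 and 6.06 at day 0 and 9.91, 10.002 and 10.09 at day 2, a change of 3.83 ± 0.11, with all day 2 arrays above all day 0 arrays. Among stromal and endothelial markers 2 of 13 rose and 2 fell (4 rose without replicate 3 of day 0, and 1 fell without replicate 1 of day 0, 2 of day 2 or 3 of day 2), and their mean level was 5.64 to 5.79 at day 0 and 5.57 to 5.63 at day 2.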
